A study of Homo sapiens with 6 samples.

Results

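The genes described here encode the chromosomal passenger complex and the core machinery of cytokinesis, the splitting of one cell into daughter cells after mitosis. They are AURKB, INCENP, BIRC5, CDCA8, KIF23, RACGAP1, ECT2, ANLN, PRC1 and PLK1, 10 of the 27968 genes in the deposited tables, and were chosen by name with this comparison already known. All 10 passed the filter on low counts. RNA came from H23 cells, a human lung adenocarcinoma line, 48 hours after transfection with HOTAIR-N siRNA, directed at a transcript of the lncRNA gene HOTAIR (3 libraries), or with control siRNA (3 libraries). The series' design text gives each library as an independent transfection, all cells had the same transfection reagent and medium, and the sources used here give no siRNA sequences.

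The chromosomal passenger complex consists of the kinase Aurora B (AURKB), the scaffold INCENP that activates it, and the targeting subunits survivin (BIRC5) and borealin (CDCA8). It corrects kinetochore attachments at centromeres until anaphase and then moves to the central spindle, the bundle of overlapping microtubules between the separating chromosomes. There PRC1, here the microtubule bundler and not the Polycomb complex, crosslinks the microtubules, and centralspindlin, made of the kinesin KIF23 and the GTPase-activating protein RACGAP1, marks the midzone. PLK1 phosphorylates RACGAP1 so that the exchange factor ECT2 binds and activates RhoA, and the scaffold anillin (ANLN) joins RhoA, actin, myosin and septins in the contractile ring. In cycling cells such genes are transcribed late in the cycle, under the MuvB complex with B-MYB and FOXM1, which acts through a promoter element called the cell cycle genes homology region (CHR) and often a neighbouring CCAAT box.

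RefSeq promoter sequences (build GRCh38.p14, 250 bases before to 50 after a start site) were at hand for 8 of the 10 genes, all except BIRC5 and RACGAP1. AURKB and ECT2 had 2 start sites each, which made 10 windows, and a gene counted if any of its windows held the word. The CHR letters TTTGAA were searched on both strands, as were the letters CCAAT. The CHR word was in the window of 7 of the 8 genes, all except AURKB, against 13.8% of 11268 tested genes with a promoter entry. CCAAT was in 7 of the 8, all except ANLN, against 42.7% of these genes, and 6 of the 8 had both, against 5.64%. The stretches around the first TTTGAA are shown because they are the sequence feature most of these genes share; capitals mark a match to either word on either strand, and each line runs 5' to 3' on the strand of the gene.
INCENP, chr11:62123956-62124030, plus strand: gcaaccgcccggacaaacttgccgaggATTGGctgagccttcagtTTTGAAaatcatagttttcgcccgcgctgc
CDCA8, chr1:37692448-37692522, plus strand: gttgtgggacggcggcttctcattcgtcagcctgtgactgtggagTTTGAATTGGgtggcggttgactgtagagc
KIF23, chr15:69414249-69414323, plus strand: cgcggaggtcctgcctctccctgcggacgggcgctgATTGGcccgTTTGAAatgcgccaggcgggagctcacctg
ECT2, chr3:172750566-172750686, plus strand: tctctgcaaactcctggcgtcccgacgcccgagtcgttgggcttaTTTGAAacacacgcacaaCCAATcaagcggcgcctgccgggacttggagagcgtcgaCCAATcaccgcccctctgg
ANLN, chr7:36389797-36389871, plus strand: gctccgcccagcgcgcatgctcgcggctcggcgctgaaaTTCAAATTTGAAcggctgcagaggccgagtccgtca
PRC1, chr15:90994526-90994600, minus strand: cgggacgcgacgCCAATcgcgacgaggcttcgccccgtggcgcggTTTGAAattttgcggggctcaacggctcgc
PLK1, chr16:23678815-23678889, plus strand: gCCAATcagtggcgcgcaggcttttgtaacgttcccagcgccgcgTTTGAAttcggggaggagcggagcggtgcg

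Counted from the annotated start site, TTTGAA began 10 bases upstream in INCENP (position -10), at -20 in ANLN and PRC1, at -23 in CDCA8, at -29 in PLK1 and at -55 in KIF23. From its first start site, ECT2 had it at -115 and again at 35, inside the transcript. The window of its other start site had no CCAAT and held TTTGAA at -242, the same place as that at 35, and at -182. Each of these lies on the strand of the gene; ANLN alone had a further match on the other strand, from -26, directly before the first. In CDCA8 the last base of this word is also the first of a reverse-strand CCAAT match (read ATTGG), so that the matches overlap. KIF23 had a reverse-strand CCAAT match at -64, just before its CHR word, while PRC1 had CCAAT at -53 and PLK1 at -73. The E2F words TTTCGCGC and TTTGGCGC were in none of the 10 windows of the 8 genes. They were in only 1.08% and 1.34% of the tested genes, so their absence from 8 genes is near that share. The letters are a description of these windows and do not show that a factor binds there.

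**Figure D1:**
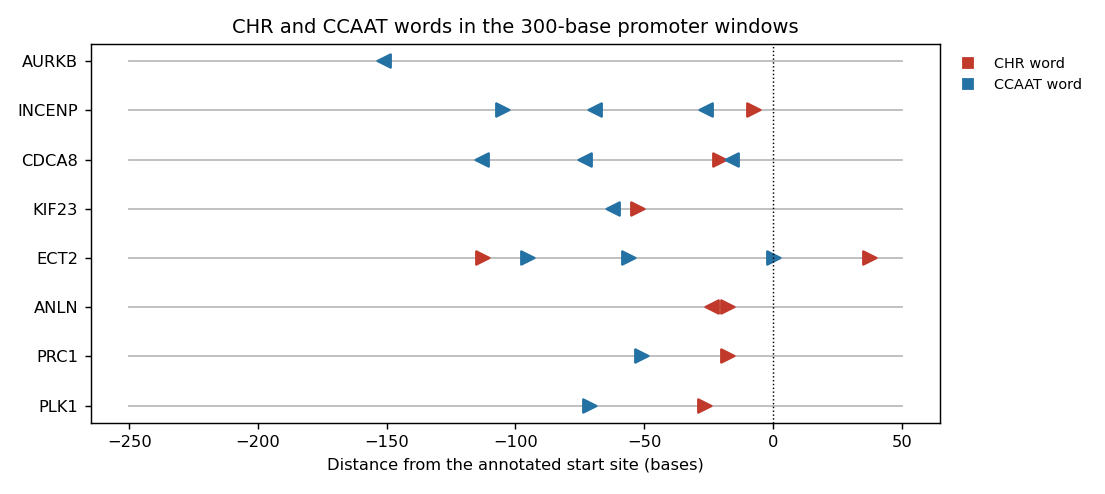
Positions of TTTGAA (CHR word, red) and CCAAT (blue) in the promoter windows of 8 genes, as distance in bases from the first annotated start site; arrowheads pointing right are on the strand of the gene and those pointing left on the other strand. In INCENP, CDCA8, KIF23, ANLN, PRC1 and PLK1 the CHR word begins between -55 and -10.

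The libraries held 32715361 to 36578681 expected counts. HOTAIR, the targeted gene, had 88, 74 and 82 expected counts with HOTAIR-N siRNA and 169, 148 and 202 with control siRNA, or -1.04 on the log2 scale with a standard error (SE) of 0.14 (adjusted p = 1.32e-05 by edgeR). Permuting the libraries exactly, two-sided, gave p = 0.1, which is the smallest value that 3 against 3 libraries allow. The epithelial keratin genes KRT8 and KRT18 had 1570 and 1535 TPM (the authors' length-adjusted level) with HOTAIR-N siRNA, and 1505 and 2592 TPM with control siRNA. Of 8 tested epithelial and lung markers 3 rose, 1 fell and 4 did not pass. CDH1 rose to 24.5 TPM with HOTAIR-N siRNA against 12.01 TPM with control siRNA, KRT7 rose to 2.64 TPM with HOTAIR-N siRNA against 1.31 TPM with control siRNA, and KRT18 fell (log2 fold changes 1.07, 1.05 and -0.71; edgeR, adjusted p = 2.35e-09, 0.000368 and 1.23e-07). The lung lineage gene NKX2-1 also rose (edgeR, adjusted p = 0.000196), to 2.49 TPM with HOTAIR-N siRNA against 1.26 TPM with control siRNA, while SFTPC was at 0 with HOTAIR-N siRNA and 0.017 TPM with control siRNA, and SCGB1A1 was listed at 0 throughout. The leukocyte genes CD3E and PTPRC, the endothelial gene PECAM1 and the fibroblast gene THY1 were at 0 to 0.033 TPM in both groups, and the 15 markers of such cells summed to 14.6 to 15.6 TPM with HOTAIR-N siRNA and 12.5 to 14.5 TPM with control siRNA, with 3 of the 15 at a mean of 1 TPM or more. Of 7 of these that were tested, 2 rose and 5 did not pass. Of those that did not pass, the leukocyte gene CD68 was at 8.67 TPM with HOTAIR-N siRNA and 8.18 TPM with control siRNA. CD14, also a leukocyte gene, was at 2.21 TPM with HOTAIR-N siRNA and 2.69 TPM with control siRNA. The fibroblast gene LUM rose to 2.66 TPM with HOTAIR-N siRNA against 1.41 TPM with control siRNA (edgeR, adjusted p = 6.63e-05), and the endothelial gene VWF to 0.117 TPM with HOTAIR-N siRNA against 0.06 TPM with control siRNA (edgeR, adjusted p = 0.013). Their part in the results was not tested.

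All 10 genes had lower levels in every HOTAIR-N siRNA library than in any control library. Across all 15072 tested genes 31.3% had groups that did not overlap in this direction and 62.9% in either, and 28.8% were called lower at an adjusted p under 0.05. The members were picked with this contrast in view, so their own fold changes are given with an SE and without a test. CDCA8 was lowest relative to control, followed by KIF23, ECT2 and ANLN, and AURKB and PLK1 were closest to control. Together the 10 genes summed to 865 to 883 TPM with HOTAIR-N siRNA and 1389 to 1476 TPM with control siRNA. Fewer cells in late cycle phases and less RNA per such cell cannot be told apart in these bulk libraries.

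**Figure D2:**
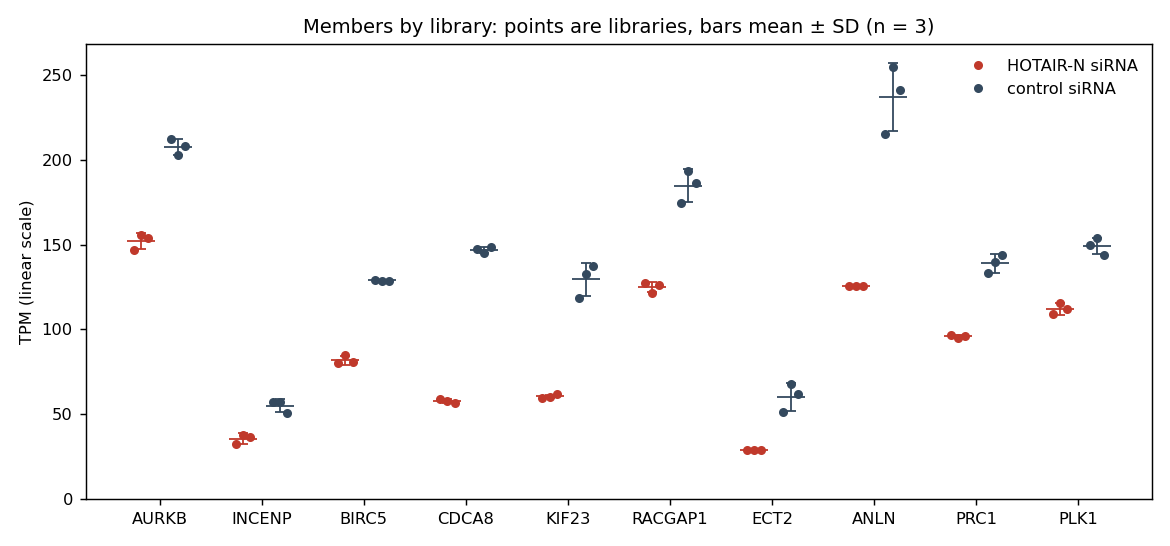
Level of each gene in TPM on a linear axis starting at 0, with HOTAIR-N siRNA (red) left of control siRNA (dark blue); points are libraries, and the horizontal marks and bars are the mean and SD of 3 libraries. In every gene the 3 HOTAIR-N siRNA points lie below the 3 control points, with the widest relative gap in CDCA8, at 57 to 59 TPM against 145 to 148 TPM.

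Within the passenger complex, the kinase gene AURKB was the most abundant. It had 147, 156 and 154 TPM with HOTAIR-N siRNA and 212, 203 and 208 TPM with control siRNA, which left a clear gap between the groups. Its log2 fold change was -0.39 (SE 0.06). INCENP, the scaffold, was the least abundant of the complex, with 32.2, 37.9 and 36.7 TPM with HOTAIR-N siRNA and 57.2, 57.1 and 50.8 TPM with control siRNA. The low values were HOTAIR-N siRNA replicate 1 and control replicate 3, and the groups stayed apart, with a log2 fold change of -0.59 (SE 0.07).

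BIRC5, which reads phosphorylated histone H3 at centromeres, had 80.01, 84.9 and 80.7 TPM with HOTAIR-N siRNA and 129, 129 and 129 TPM with control siRNA. The control libraries were almost identical in TPM. On CPM (counts scaled to library size) their coefficient of variation was 3.06%, against 2.94% with HOTAIR-N siRNA. BIRC5 had a log2 fold change of -0.61 (SE 0.05). CDCA8, which holds the complex on nucleosomes and at the centromere, had 58.9, 57.7 and 56.8 TPM with HOTAIR-N siRNA and 148, 145 and 148 TPM with control siRNA. Its level was 39.3% of control by TPM, the lowest of the 10 genes, with a log2 fold change of -1.31 (SE 0.06), and 2.27% of all tested genes had a lower fold change.

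The balance of the 4 mRNAs of the complex differed between the groups. As a share of their summed TPM, CDCA8 made up 18.5%, 17.2% and 17.3% with HOTAIR-N siRNA, against 27.0%, 27.2% and 27.7% with control siRNA. AURKB made up 46.2%, 46.3% and 46.9% with HOTAIR-N siRNA and 38.8%, 38.0% and 38.8% with control siRNA. The shares of these subunits did not overlap between the groups. The share of BIRC5 was 25.0% ± 0.36 with HOTAIR-N siRNA and 23.9% ± 0.25 with control siRNA, and that of INCENP 10.9% ± 0.63 with HOTAIR-N siRNA and 10.2% ± 0.65 with control siRNA (SD, n = 3 each). BIRC5's shares did not overlap either, at 24.6% to 25.2% with HOTAIR-N siRNA and 23.7% to 24.1% with control siRNA. INCENP's shares overlapped, at 10.1% to 11.3% with HOTAIR-N siRNA and 9.48% to 10.7% with control siRNA. The sum itself was 327 ± 9.35 TPM with HOTAIR-N siRNA and 539 ± 6.60 TPM with control siRNA (SD, n = 3 each).

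**Figure D3:**
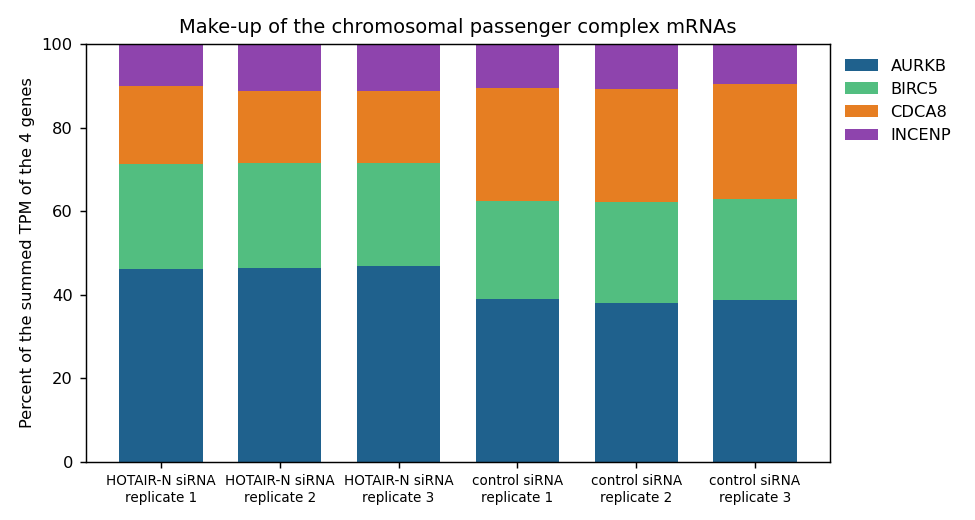
Share of AURKB, BIRC5, CDCA8 and INCENP in the summed TPM of these 4 genes, in percent, in each library, with the HOTAIR-N siRNA libraries left of the control libraries. The CDCA8 part is 17.2% to 18.5% in the HOTAIR-N siRNA libraries and 27.0% to 27.7% in the control libraries.

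Centralspindlin showed a similar imbalance. KIF23, its motor, had 59.7, 60.0 and 61.7 TPM with HOTAIR-N siRNA and 119, 133 and 137 TPM with control siRNA, and control replicate 1 was the lowest of the controls. Its log2 fold change was -1.05 (SE 0.06). RACGAP1, the partner that binds ECT2, had 127, 121 and 126 TPM with HOTAIR-N siRNA and 174, 194 and 187 TPM with control siRNA, a smaller difference of -0.51 on the log2 scale (SE 0.05). The ratio of RACGAP1 to KIF23 in TPM was 2.07 ± 0.06 with HOTAIR-N siRNA and 1.43 ± 0.06 with control siRNA (SD, n = 3 each), with no overlap. In the protein complex the subunits are present in equal number, and mRNA levels do not measure that.

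ECT2, the exchange factor for RhoA, had 28.8, 28.9 and 28.8 TPM with HOTAIR-N siRNA and 51.2, 67.7 and 61.9 TPM with control siRNA. The HOTAIR-N siRNA libraries were almost identical while the controls spread the most of all 10 genes, with a coefficient of variation of 11.3% on CPM (counts scaled to library size). The log2 fold change was -1.01 (SE 0.07). ANLN had 125, 126 and 126 TPM with HOTAIR-N siRNA and 215, 255 and 241 TPM with control siRNA, and was the most abundant of the 10 genes under control siRNA. Its log2 fold change was -0.87 (SE 0.05), and control replicate 1 was again the lowest control.

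The bundler PRC1 had 96.9, 94.9 and 96.0 TPM with HOTAIR-N siRNA and 133, 140 and 144 TPM with control siRNA, with a log2 fold change of -0.49 (SE 0.05). PLK1 had 109, 116 and 112 TPM with HOTAIR-N siRNA and 150, 154 and 144 TPM with control siRNA, with a log2 fold change of -0.37 (SE 0.05). By TPM, PLK1 was at 75.2% of control and AURKB at 73.2%, so that the kinase genes were the least lowered of the set. By level the order under control siRNA ran from ANLN, AURKB and RACGAP1 through PLK1, CDCA8, PRC1, KIF23 and BIRC5 to ECT2 and INCENP. The control libraries of neighbours in this order overlapped for PLK1 and CDCA8, PRC1 and KIF23, KIF23 and BIRC5, and ECT2 and INCENP. All 10 genes rested on at least 2060 expected counts in every library, and under control siRNA each was more abundant in TPM than 80% or more of the tested genes.

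Within a group the 10 genes deviated in both directions in every library. Relative to the group mean, the median deviation over the 10 genes was between -0.01 and 0.02 on the log2 CPM scale in every library, and 4 to 8 of the 10 genes lay above the mean. The largest single deviation was that of ECT2 in control replicate 1, at -0.19. The libraries of a group differed from each other by more than counting error, with a chi-square per degree of freedom of 2.05 to 5.66 within HOTAIR-N siRNA and 6.75 to 14 within control siRNA, where the pairs with control replicate 1 were highest.

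At the isoform level the tables list 54 RefSeq transcripts of the 10 genes, of which 46 had a mean of at least 10 expected counts per library and 2 were at 0 in all libraries. PLK1 has a single listed transcript. Of the 45 such transcripts in the other genes, 18 had shares of their gene that did not overlap between the siRNAs, against 23.9% of 25999 transcripts of genes with several. Shares within a gene add up to the whole, so a gain by some transcripts is mirrored in others and the 18 are not separate changes. The background was not matched on level, and the 10 genes are abundant. The shares are RSEM estimates that divide reads among transcripts differing by few exons, and belong to the same contrast, so no test is given. For ANLN, the coding exon that tells its main transcripts apart is printed here from GENCODE release 29 (build GRCh38), with the exon in capitals between 15 flanking bases on each side; its length equals the length difference in the deposited tables.
ANLN NM_018685 exon absent from NM_001284301, chr7:36417080-36417190, plus strand: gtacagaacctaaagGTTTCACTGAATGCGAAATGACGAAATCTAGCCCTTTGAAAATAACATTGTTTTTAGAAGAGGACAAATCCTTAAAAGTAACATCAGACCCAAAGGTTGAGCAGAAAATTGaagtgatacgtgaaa

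The main survivin transcript of BIRC5, NM_001168, made up 71.5%, 70.6% and 72.1% of the gene with HOTAIR-N siRNA and 75.9%, 74.5% and 77.3% with control siRNA. The transcript with an additional exon, NM_001012271 or survivin-2B, made up 19.02%, 20.2% and 20.0% with HOTAIR-N siRNA and 13.8%, 16.1% and 14.0% with control siRNA. The shares did not overlap for either. In absolute terms NM_001168 was at 58.5 TPM with HOTAIR-N siRNA against 97.8 TPM with control siRNA, a log2 fold change of -0.69 (SE 0.04), while NM_001012271 was at 16.2 TPM with HOTAIR-N siRNA against 18.8 TPM with control siRNA, -0.16 (SE 0.08). NM_001012270, or survivin-ΔEx3, lacks a 118 nt coding exon and made up 8.83% ± 0.84 with HOTAIR-N siRNA and 9.51% ± 0.81 with control siRNA (SD, n = 3 each), with overlapping values.

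KIF23 followed the same pattern. The longer transcript NM_138555, whose additional 312 nt coding exon (GRCh38, chr15:69440768-69441079, plus strand) adds to the tail of the motor in the form known as CHO1, made up 26.2%, 24.6% and 29.9% with HOTAIR-N siRNA and 19.8%, 18.8% and 19.7% with control siRNA. The shorter NM_004856, known as MKLP1, made up 73.3%, 74.4% and 69.9% with HOTAIR-N siRNA and 78.9%, 80.1% and 79.0% with control siRNA. Their log2 fold changes were -0.57 (SE 0.10) for the longer and -1.17 (SE 0.05) for the shorter, so both were below control. In ANLN the shares moved towards the longer NM_018685, which made up 80.5% ± 1.61 with HOTAIR-N siRNA and 76.4% ± 1.98 with control siRNA (SD, n = 3 each), and the groups did not overlap.

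CDCA8 has a pair of listed transcripts that differ by 97 nt. The longer, NM_001256875, made up 69.99%, 71.4% and 63.1% with HOTAIR-N siRNA and 80.5%, 78.8% and 72.0% with control siRNA, and the shorter, NM_018101, the rest. The ranges were close, with replicate 3 lowest in each group. Both were lower, the longer by -1.47 (SE 0.08) and the shorter by -0.82 (SE 0.17) in log2 fold change. In AURKB, NM_001256834 made up 12.7%, 12.3% and 9.88% with HOTAIR-N siRNA and 21.9%, 21.3% and 21.0% with control siRNA. The main AURKB transcript NM_004217 had the opposite shift, 60.6% ± 2.34 with HOTAIR-N siRNA and 52.2% ± 2.55 with control siRNA (SD, n = 3 each). NM_001313953 also gained share, at 13.9% ± 1.64 with HOTAIR-N siRNA and 8.40% ± 0.72 with control siRNA (SD, n = 3 each). This transcript was not below control, with a log2 fold change of 0.33 (SE 0.12) and expected counts that overlapped between the groups. In RACGAP1, which has 12 listed transcripts, NM_001319999 made up 67.5%, 68.3% and 68.0% with HOTAIR-N siRNA and 54.5%, 56.2% and 56.6% with control siRNA, while NM_001320007 was at 3.12% ± 0.86 with HOTAIR-N siRNA and 9.61% ± 1.60 with control siRNA (SD, n = 3 each). The INCENP transcripts, which differ by 12 nt, and the PRC1 transcripts had overlapping shares, as did the 2 most abundant of the 14 ECT2 transcripts. Of the 10 ECT2 transcripts with a mean of at least 10 expected counts, 1 had shares that did not overlap. It was NM_001349100, with 0 expected counts in every HOTAIR-N siRNA library and 94.3, 225 and 108 with control siRNA.

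**Figure D4:**
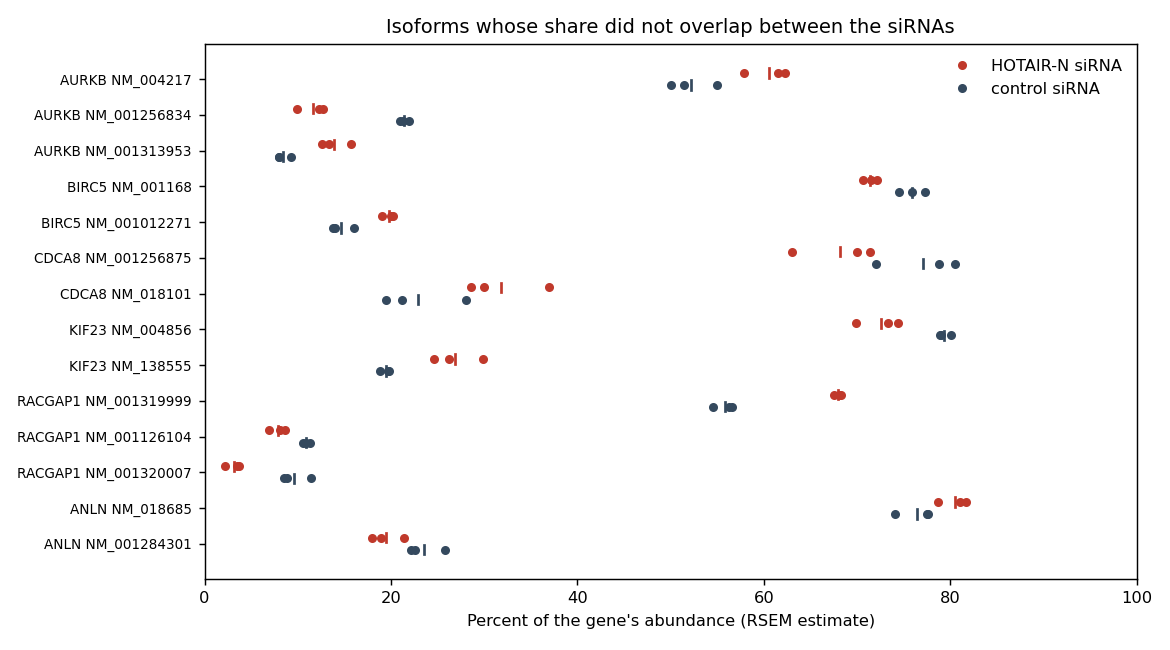
Share of each transcript in its gene in percent, for the 14 transcripts that reach a mean of 5% in either group and whose shares do not overlap between the siRNAs; HOTAIR-N siRNA points (red) are drawn above control points (dark blue) in each row, with a tick at the mean of 3 libraries. NM_001319999 of RACGAP1 lies at 67.5% to 68.3% with HOTAIR-N siRNA and 54.5% to 56.6% with control siRNA.

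Genes around these 10 were then counted by role, from lists drawn up by function with earlier results of these data known; they hold none of the 10 and were tested in the fit of all genes. For reference, 28.8% of all tested genes were called lower and 28.7% higher, and the median log2 fold change of all tested genes was 0.0061. Of 20 tested partners and regulators of the passenger complex, 14 fell, 2 rose and 4 did not pass, with a median of -0.25. BUB1, whose kinase activity marks the inner centromere for shugoshin and the complex, fell to 227 ± 6.07 CPM with HOTAIR-N siRNA, against 336 ± 20.0 CPM with control siRNA (SD, n = 3 each), which is a log2 difference of -0.57 (SE 0.06; edgeR, adjusted p = 6.37e-07). KIF20A, the kinesin that carries the complex to the midzone, fell by 0.66 in log2 units (edgeR, adjusted p = 1.83e-07), and KIF2C, a microtubule depolymerase and Aurora B substrate, by 0.51 (edgeR, adjusted p = 7.48e-07).

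CBX5, the heterochromatin protein that binds INCENP, fell the most of this list, to 192 ± 5.98 CPM with HOTAIR-N siRNA against 421 ± 47.9 CPM with control siRNA (SD, n = 3 each), which is a log2 difference of -1.13 (SE 0.07; edgeR, adjusted p = 6.68e-09). The exportin gene XPO1, whose product binds survivin, fell by 0.51 (edgeR, adjusted p = 1.20e-05). PPP1CC, a phosphatase subunit, had a log2 fold change of -0.16 (edgeR, adjusted p = 0.0392), with overlapping groups; it did not pass in 7 of 14 alternatives. The genes that rose, named here after their values were seen, were KLHL9 (0.33; edgeR, adjusted p = 0.0017), an adaptor of the CUL3 ligase, and RCC2 (0.12; edgeR, adjusted p = 0.04997), just inside the threshold; without any one of the HOTAIR-N siRNA libraries the count that rose was 1. Also named after their values were seen, the paralog AURKA had -0.20 (edgeR, adjusted p = 0.00545), and AURKC did not pass the filter, at 0.09 CPM with HOTAIR-N siRNA and 0.13 CPM with control siRNA.

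Of 16 central spindle and midbody genes, 11 fell, 3 rose and 2 did not pass, with a median log2 fold change of -0.45. KIF4A, the kinesin that PRC1 recruits to the midzone, fell to 183 ± 2.73 CPM with HOTAIR-N siRNA against 299 ± 7.66 CPM with control siRNA (SD, n = 3 each), which is a log2 difference of -0.70 (SE 0.05; edgeR, adjusted p = 2.35e-08). NUSAP1, a microtubule bundler, fell by 0.66, the microtubule plus-end protein gene CLASP2 by 0.64 and SHCBP1, a midbody partner of RACGAP1, by 0.54 (edgeR, adjusted p from 2.26e-07 to 4.08e-06). The paralog CLASP1 went the other way, at 0.19 (SE 0.05; edgeR, adjusted p = 0.00549). Chosen after their values were seen, CEP55, which brings the abscission machinery to the midbody, fell by 0.58 and the citron kinase gene CIT by 0.45, while the phosphatase gene CDC14A rose by 0.57 (edgeR, adjusted p from 4.12e-06 to 1.51e-05).

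Of 33 RhoA pathway and contractile ring genes, 17 fell, 7 rose and 9 did not pass, with a median of -0.19 and the widest range of the 6 lists, -2.26 to 1.44. The count that rose was 4 without HOTAIR-N siRNA replicate 2 or 3 or control replicate 3. MYLK, the myosin light chain kinase, fell to 4.34 ± 0.26 CPM with HOTAIR-N siRNA against 20.8 ± 0.25 CPM with control siRNA (SD, n = 3 each), and the septin gene SEPT7 to 78.6 ± 5.76 CPM with HOTAIR-N siRNA against 297 ± 19.7 CPM with control siRNA (SD, n = 3 each), or log2 differences of -2.26 and -1.92 (edgeR, adjusted p = 4.70e-11 and 3.57e-11). The regulatory light chain genes went in opposite directions. MYL9 fell by 1.12 (edgeR, adjusted p = 5.97e-09), while MYL12B rose to 1196 ± 55.0 CPM with HOTAIR-N siRNA against 442 ± 24.2 CPM with control siRNA (SD, n = 3 each), which is a log2 difference of 1.44 (SE 0.06; edgeR, adjusted p = 7.87e-11). MYL12A, a near-identical copy of MYL12B named after its value was seen, had -0.36, and reads the copies share make both values uncertain. MYH9, the main non-muscle myosin heavy chain gene, fell by 0.39 (edgeR, adjusted p = 0.000748), and the profilin gene PFN1 had 0.01 (edgeR, adjusted p = 0.932). Chosen after their values were seen, RHOA itself fell by 0.29 and the formin gene DIAPH3 by 0.82 (edgeR, adjusted p = 0.000116 and 9.80e-08).

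Of 27 abscission genes, 6 fell, 7 rose and 14 did not pass, with a median log2 fold change of -0.03. Abscission is the last cut of the intercellular bridge by ESCRT-III filaments. The ESCRT-III genes CHMP1B and CHMP3 rose, CHMP1B to 151 ± 7.49 CPM with HOTAIR-N siRNA against 90.1 ± 3.44 CPM with control siRNA and CHMP3 to 221 ± 6.08 CPM with HOTAIR-N siRNA against 154 ± 3.63 CPM with control siRNA (SD, n = 3 each), with log2 differences of 0.74 and 0.52 (edgeR, adjusted p = 6.12e-08 and 7.78e-07). BIRC6, a large midbody ubiquitin ligase of the same family as survivin, rose by 0.34 and the SNARE gene VAMP8 by 0.65, while the lipid phosphatase gene OCRL fell by 0.48 (edgeR, adjusted p from 1.88e-06 to 5.97e-05). The count that fell was 2 to 3 without any one of the HOTAIR-N siRNA libraries.

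Of 26 genes around PLK1 and mitotic entry and exit, 17 fell, 2 rose and 7 did not pass, with a median of -0.44. GTSE1, a PLK1 substrate, fell by 0.80, the checkpoint kinase gene BUB1B by 0.63 and the Aurora A activator gene TPX2 by 0.61, and the cyclin gene CCNB1 fell to 272 ± 15.01 CPM with HOTAIR-N siRNA against 397 ± 32.3 CPM with control siRNA (SD, n = 3 each), by 0.55 (edgeR, adjusted p from 7.24e-08 to 3.96e-06). The paralog PLK2, a stress-responsive kinase gene, rose to 114 ± 4.16 CPM with HOTAIR-N siRNA against 66.4 ± 1.26 CPM with control siRNA (SD, n = 3 each), which is a log2 difference of 0.78 (SE 0.06; edgeR, adjusted p = 2.36e-08). Chosen after their values were seen, BORA, the cofactor with which Aurora A activates PLK1, fell by 0.63, and PLK3 had 0.14 and did not pass (edgeR, adjusted p = 4.21e-06 and 0.213).

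Of 26 transcription factors and cofactors of cell cycle promoters, 15 fell, 3 rose and 8 did not pass, with a median of -0.23. FOXM1, which activates late cell cycle genes, fell to 294 ± 13.9 CPM with HOTAIR-N siRNA against 417 ± 14.4 CPM with control siRNA (SD, n = 3 each), which is a log2 difference of -0.51 (SE 0.05; edgeR, adjusted p = 1.52e-06). The MuvB subunit gene LIN52 fell by 1.25, the repressor gene E2F7 by 1.06 and DYRK1A, the kinase that assembles the repressive form of the complex by phosphorylating LIN52, by 0.71, while RBBP4 fell by 0.26 (edgeR, adjusted p from 3.55e-09 to 0.000809). CDKN1A, the CDK inhibitor p21, rose to 242 ± 6.37 CPM with HOTAIR-N siRNA against 128 ± 15.1 CPM with control siRNA (SD, n = 3 each), which is a log2 difference of 0.92 (SE 0.07; edgeR, adjusted p = 6.57e-08). B-MYB (MYBL2), chosen after its value was seen, had -0.20 (edgeR, adjusted p = 0.0132). The other genes of this list that rose, also named after their values were seen, were E2F1 by 0.43 and E2F2 by 0.16 (edgeR, adjusted p = 7.45e-05 and 0.0403). Whether these factors have a part in the levels of the 10 genes was not tested.

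**Figure D5:**
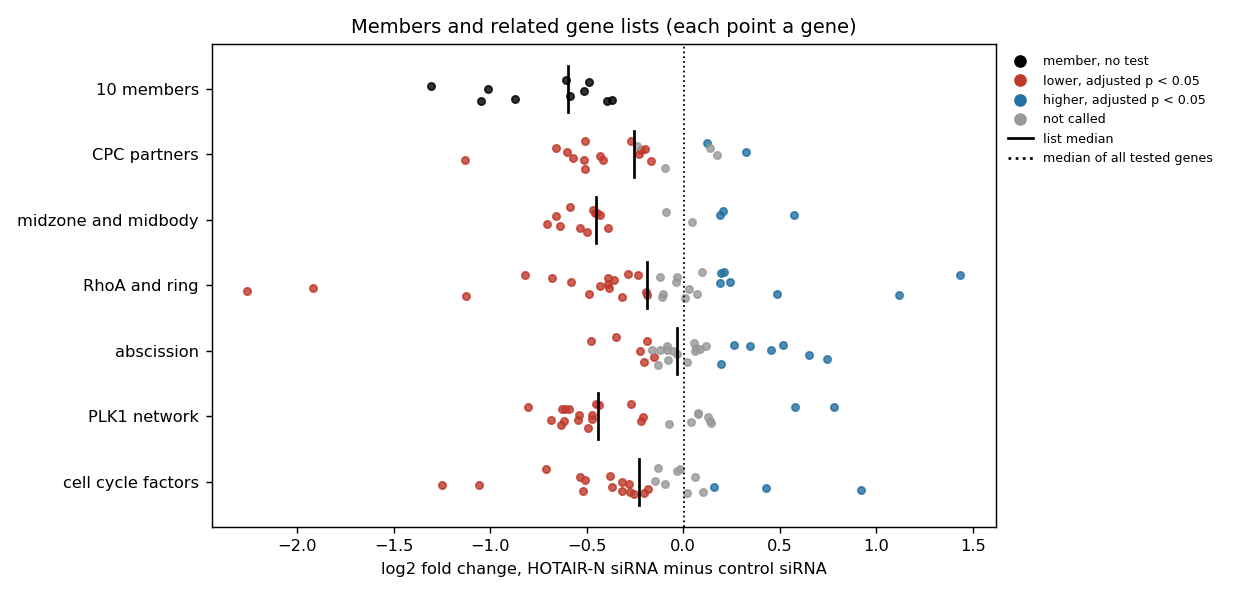
Log2 fold change, HOTAIR-N siRNA minus control siRNA, of the 10 members (black, no test) and of the tested genes of 6 related lists; red and blue points passed the edgeR test lower and higher, grey points did not, solid ticks are list medians and the dotted line is the median of all tested genes. The members' median is -0.60, that of the PLK1 list -0.44 and that of the abscission list -0.03.

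Other features of the 10 genes were looked up outside the rule that chose them. The word GACCAAT, singled out in earlier results of these data, was looked up in a single GENCODE release 29 transcript of each gene searched. This was the coding transcript with the longest 3' UTR, so other transcripts of a gene were not searched. The 860 genes that carry it in the 3' UTR had a median of -0.33 in log2 fold change. The 786 genes with it in the coding sequence only had -0.20, and the 11655 genes with it in neither region had 0.02. Because the word was picked from these same data, these medians are no separate support for it. None of the 10 members carried it in either region of that transcript, as for 87.6% of the 13301 genes searched. Of the 1555 tested genes with TTTGAA in the promoter window 38.5% were called lower, with a median of -0.10 in log2 fold change, against 29% and a median of 0.005 for the 9713 genes without it. Of the genes that overlap the 10 loci in GENCODE, KIAA0895, opposite ANLN, was the only one tested, at 28.2 CPM with HOTAIR-N siRNA and 26.0 CPM with control siRNA, far below ANLN at 308 CPM with HOTAIR-N siRNA and 564 CPM with control siRNA. The sources used here give no strand setting for the counting, so reads from such overlaps cannot be assigned with certainty.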

How the data were processed

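Libraries were made from total RNA with a stranded, ribosomal RNA-depleting kit, per the labels' protocols; STAR 2.6.0c, RSEM 1.3.0 and hg19 are given per the submitters' processing notes. The authors deposited, per the file headers, expected counts (RSEM estimates of reads), TPM and FPKM for 27968 genes and 70006 isoforms, and, for isoforms, their percent of the abundance of the gene. FPKM was not used. The 10 genes and all lists were chosen with earlier results of these data known.

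Expected counts were rounded and tested with edgeR 4.0.16 (R 4.3.3): filterByExpr by group, TMM scaling and the robust quasi-likelihood test, with Benjamini-Hochberg adjusted p-values over all 15072 tested genes and a threshold of 0.05. Log2 fold changes put HOTAIR-N siRNA over control siRNA. CPM uses the TMM-scaled library sizes, and log2 CPM per library a pseudocount of 0.5 CPM. Isoforms were fitted alike. In each of the 6 pathway lists the 4 genes with the smallest p and the 2 most abundant were named; others in these lists are marked, and the marker genes shown were chosen after their values were seen. Alternatives were RLE, upper-quartile and unscaled sizes, no filter, a filter of 50 counts, DESeq2 1.42.0, limma-voom (limma 3.58.1), the replicate number as a block, and each library left out. Annotations on GRCh38 served for sequences and neighbours only. The sequence of an additional BIRC5 exon is not reported here.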

Additional observations from a re-analysis of the deposited data

How the results depend on the processing

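The fold changes of the 10 genes kept their direction and moved by less than the replicate SD under all 14 alternatives; CDCA8 ranged from -1.34 to -1.28 and PLK1 from -0.39 to -0.34, and their median from -0.63 to -0.56. HOTAIR passed under each (-1.14 to -0.94, highest adjusted p = 6.92e-05). Over all genes 3796 to 4573 were called lower and 3707 to 4661 higher, both extremes from leaving out 1 library. Counts of calls in the lists stayed within 1.5 times of those given, with 3 exceptions. The passenger complex partners that rose numbered 1 instead of 2 with RLE sizes, no filter, DESeq2 and the replicate block, and 1 to 2 with a library left out. The abscission genes that fell numbered 3 instead of 6 with upper-quartile sizes, unscaled sizes and the replicate block, and 2 to 7 with a library left out; the ring genes that rose numbered 4 to 7 with a library left out. The cause was not tested.

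The replicate numbers are shared between the groups but did not pair the libraries: deviations from the group means correlated at -0.24, -0.01 and -0.08 for numbers 1, 2 and 3, and no library correlated best with its own number. With the replicate block, 3996 genes were lower and 3988 higher. Isoform shares rest on divided reads and carry an error the tables do not state.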

Other observations

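Among 14899 tested genes outside the lists, those whose log2 CPM over the 6 libraries was most like the mean of the 10 standardised members were PLAGL2, C11orf49, DCLRE1B, ELAVL1 and DNAJC6, each with a Pearson correlation of at least 0.999. Their log2 fold changes ran from -2.05 for the RNA-binding protein gene ELAVL1 to -0.85 for the DNA repair nuclease gene DCLRE1B. The 6 libraries fall into the 2 siRNA groups, so the correlation mostly restates that difference, and 2086 genes had at least 0.95.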
